A study of Mus musculus with 2 samples.

Results

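The integrated stress response is described here through 10 genes, chosen by name from a list with earlier results of these data known. They are the transcription factors Atf4, Atf5, Ddit3 and Atf3, the target genes Chac1 and Trib3, and the phosphatase subunit Ppp1r15a. The amino acid synthesis enzymes Asns, Psat1 and Phgdh complete the 10. All 10 were found among the 17829 gene rows of the deposited count matrix. Against the WT library, the Mettl14 KO library held far more Chac1 and Trib3 transcript, about 2-fold more Atf5 and Asns, more Phgdh, and less Atf3 and Ppp1r15a. Atf4 and Ddit3 stood within 1.5-fold of equal levels.

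The integrated stress response begins when stress-sensing kinases phosphorylate the translation initiation factor eIF2. Protein synthesis then slows in general, while the mRNAs of Atf4 and some related factors are translated better. ATF4 protein, a basic leucine zipper activator, pairs with C/EBP and other family members to switch on genes for amino acid synthesis and transport, and the Ppp1r15a product brings a phosphatase to eIF2 that ends the response. Because much of the control of ATF4 is exerted on translation, its mRNA level need not follow its activity. In the gut epithelium the response is known from secretory cells, whose endoplasmic reticulum (ER) carries a heavy load, and from cells short of amino acids.

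The samples were live EpCAM-positive cells of the colon epithelium of C57BL/6 mice, sorted by flow cytometry and profiled with the 10x Genomics 3' kit, version 2. One group carries the genotype label Mettl14_WT and the other Mettl14_ KO, and each is 1 library. Mettl14 encodes a subunit of the complex that writes N6-methyladenosine (m6A) on RNA, and the series asks how that mark bears on the colon epithelium. The series text places both groups at 2 weeks without saying from when, and the labels used here give no age, no number of animals per library, no Cre driver and no deleted exons.

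The WT library counted 60205658 unique molecular identifiers (UMIs, each a transcript molecule) in 4210 cells, at a median of 12094 per cell, and the KO library 37635762 in 3653 cells, at a median of 9119. All 5 epithelial markers were detected in both libraries. Stromal markers summed to 122 CPM in WT (CPM being a gene's share of the library's UMIs, scaled to 1000000) and 23.1 in KO, immune markers to 33.4 and 30.8, tuft markers to 12.7 and 4.12, and pancreatic acinar markers to 1704 and 145, with 33 WT cells rich in acinar enzymes. Mettl14 stood at 10.5 CPM in WT and 5.34 CPM in KO, and its 95% counting interval left out equal levels in clusters 1 to 4 but not in cluster 0 (log2 of KO over WT −0.36, −0.83 to 0.10) or cluster 5 (−0.39, −1.64 to 0.81). Further, 2 cell barcodes occurred in both libraries. Doublets were not removed. Of the authors' 7 clusters, 1 and 2 were goblet-like by markers, 3 cycling-like, 4 colonocyte-like and 5 enteroendocrine-like. Cluster 0 was left unnamed because the enzymes of those 33 cells led it, and cluster 6, led by collagen genes, held 117 WT and 31 KO cells and was not compared.

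Levels below are in CPM. A ratio is the KO level divided by the WT level, on the log2 scale, with its 95% interval in brackets. With 1 library per genotype there is no replicate check and no test: intervals cover counting error only, and each ratio compares these libraries. A gene with at least 50 UMIs over both libraries counts as measured. It is called higher or lower if its level differed at least 1.5-fold and its interval excluded equal levels.

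Stretches of the promoters are shown because ATF4 and its C/EBP partners are known to bind a composite element, and the 10 genes include known ATF4 targets. RefSeq windows (GRCm38.p6) from 250 bases before to 50 bases after each start were matched for 10 of 10 genes and searched on both strands for TGATGNAA, the core of that element. The core occurred in windows of 4 of the 10 genes (Chac1, Trib3, Atf3 and Asns), and in those of 4.51% of all 27025 genes with such windows. Because the 10 genes were picked by name from this pathway, the 2 figures are no test for an excess of the core. The matches are in capitals, with 11 bases on each side:
Chac1, chr2:119351038-119351067, minus strand: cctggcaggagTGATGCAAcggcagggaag
Trib3, chr2:152344028-152344057, plus strand: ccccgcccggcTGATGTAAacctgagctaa
Atf3, chr1:191183425-191183454, plus strand: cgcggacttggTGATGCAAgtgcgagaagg
Asns, chr6:7693214-7693243, minus strand: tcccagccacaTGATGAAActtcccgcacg
Counted from the start base as 1, the match lay at −193 to −186 in Chac1, 15 to 22 in Trib3, −110 to −103 in Atf3 and −23 to −16 in Asns. The GENCODE gene models start elsewhere. On the minus strand, Trib3 begins at 152344032, so its match lies upstream of that start, while Asns begins at 7693254 and Atf3 at 191218039, so their matches lie inside those models. The cAMP response element TGACGTCA was found in the window of 1 of the 10 genes, Ppp1r15a, at −12 to −5, and in those of 2.03% of all genes:
Ppp1r15a, chr7:45526262-45526291, minus strand: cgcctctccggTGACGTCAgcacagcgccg
For Chac1, the gene with the highest ratio of the 10, the 250 bases before the RefSeq start (chr2:119350992-119351241, plus strand) are given with the same match in capitals, here read on the other strand:
Chac1 upstream: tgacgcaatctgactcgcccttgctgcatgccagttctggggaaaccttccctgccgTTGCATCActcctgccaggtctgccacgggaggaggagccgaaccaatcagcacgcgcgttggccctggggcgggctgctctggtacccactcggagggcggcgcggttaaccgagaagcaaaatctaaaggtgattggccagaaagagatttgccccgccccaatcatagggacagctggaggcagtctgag
A match describes these letters and shows no binding, and the other 6 genes may hold sites outside their windows. Of the 4 genes with the core, Chac1, Trib3 and Asns were higher in KO and Atf3 was lower.

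Over all cells, 5 of the 10 genes were higher in KO, 2 lower and 3 neither, with a median ratio of 0.64. Among all 13334 measured genes 16.7% were called higher and 16.2% lower, and the median was −0.04. Because the 10 genes were chosen with earlier results of these data known, their counts here and by cluster describe this list only.

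**Figure D1:**
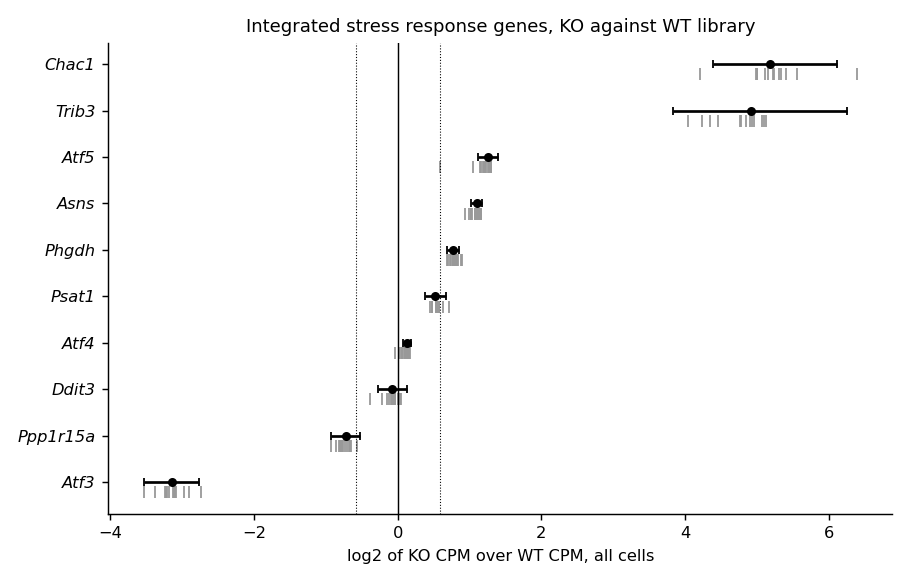
Log2 of KO CPM over WT CPM over all cells for each of the 10 genes, with 95% counting intervals as bars, dotted lines at 1.5-fold, and grey ticks below each point for the value under every alternative way of computing it. Chac1 (5.18) and Trib3 (4.91) stand far to the right and Atf3 (−3.14) far to the left, and the ticks of Atf5 reach down to 0.58.

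Atf4 (chromosome 15, 80255184 to 80257541), the effector of the pathway, gave 6553 UMIs in WT and 4469 in KO. Its level was 109 CPM in WT and 119 CPM in KO, a ratio of 0.13 (0.07 to 0.18), or 1.09-fold. The interval leaves out equal levels and lies far from 1.5-fold. It took in equal levels with each cell thinned to 3000 UMIs, where the sign turned (−0.04, −0.15 to 0.08), and in cells with at most 10% mitochondrial UMIs (0.04, −0.06 to 0.14). It also did so without mitochondrial, ribosomal-protein and haemoglobin genes in the total (0.05, −0.0012 to 0.11). With each cell thinned to 3000 UMIs, which left out 172 WT and 97 KO shallower cells, 27.9% of WT and 27.0% of KO cells held an Atf4 UMI, against 69.3% and 61.0% before thinning. No cell type known to lack these genes was at hand to give a background share.

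Atf5 (chromosome 7, 44812256 to 44816658), a factor related to ATF4 whose mRNA is also translated better under stress, stood at 12.1 CPM (730 UMIs) in WT and 28.9 CPM (1088 UMIs) in KO. The ratio was 1.25 (1.12 to 1.39), or 2.38-fold. In thinned cells an Atf5 UMI was found in 3.59% of WT and 7.42% of KO cells (14.8% and 19.4% unthinned). Among cells whose mitochondrial share was at most 10% (1060 of WT and 1180 of KO) the ratio was 0.58 (0.32 to 0.85) and no longer reached 1.5-fold. Atf5 is overlapped on the opposite strand by Nup62 and Il4i1, and the sources used here do not say whether the counting used strand, so reads of the genes may have been mixed. Il4i1 was itself at 0.581 CPM in WT and 22.4 CPM in KO and Nup62 at 31.6 and 57.7 CPM. Without the 26 WT and 269 KO cells that held an Il4i1 UMI, Atf5 had a ratio of 1.21 (1.07 to 1.35).

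Ddit3 (chromosome 10, 127290774 to 127296288) encodes CHOP, a factor tied to cell death under prolonged ER stress. It gave 530 UMIs in WT and 315 in KO, or 8.80 and 8.37 CPM, a ratio of −0.07 (−0.28 to 0.13). The interval takes in equal levels and leaves out a 1.5-fold difference either way. In thinned cells the share with a Ddit3 UMI was 2.30% in WT and 2.31% in KO. The gene overlaps Mars on the opposite strand, which stood at 17.7 CPM in WT and 24.5 CPM in KO.

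Atf3 (chromosome 1, 191170296 to 191218039) encodes a stress-induced factor that ATF4 can activate and that also belongs to the immediate early genes, which cells switch on within minutes of many stimuli. It was at 14.5 CPM in WT (872 UMIs) and 1.65 CPM in KO (62 UMIs), a ratio of −3.14 (−3.53 to −2.76), or 8.79-fold lower. An Atf3 UMI was present in 13.2% of WT and 1.26% of KO cells, and in 4.68% and 0.366% after thinning. The list of immediate early genes was lower in the same library: 11 of its 19 measured genes were lower and 0 higher, with a median ratio of −1.11. Among all measured genes 16.2% were lower and 16.7% higher. The summed level of the list was 2337 CPM in WT and 1305 CPM in KO. Its part in the Atf3 value was not tested.

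Chac1 (chromosome 2, 119351229 to 119354381), which encodes an enzyme that degrades glutathione, gave 13 UMIs in WT and 295 in KO. Its level was 0.216 CPM (0.115 to 0.369) in WT and 7.84 CPM (6.97 to 8.79) in KO. The ratio was 5.18 (4.39 to 6.11), a 36.3-fold difference that rests on few WT molecules. The transcript was spread over cells rather than held by a few: 11 WT and 220 KO cells had at least 1 UMI, with at most 2 in a WT cell and 5 in a KO cell. Those are 0.261% of WT cells (0.131 to 0.467, exact Clopper-Pearson) and 6.02% of KO cells (5.27 to 6.84), or 0.0495% and 1.83% after thinning. In the cells with at most 10% mitochondrial UMIs the ratio was 4.21 (2.92 to 5.87).

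Trib3 (chromosome 2, 152337422 to 152344032), a pseudokinase that restrains ATF4 and AKT signalling, was found in 7 WT and 132 KO UMIs. That is 0.116 CPM (0.0467 to 0.240) in WT and 3.51 CPM (2.93 to 4.16) in KO, a ratio of 4.91 (3.83 to 6.26). It was detected in 0.166% of WT and 2.98% of KO cells, and in 0.0495% and 0.900% after thinning. As with Chac1, the intervals of the 2 levels lie far apart while the size of the ratio is loosely set. It was 4.04 (2.04 to 7.16) in the cells with at most 10% mitochondrial UMIs.

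Of the amino acid enzymes, Asns (chromosome 6, 7675169 to 7693254), which makes asparagine, had the highest ratio. It stood at 37.4 CPM in WT (2253 UMIs) and 80.1 CPM in KO (3015 UMIs), a ratio of 1.10 (1.02 to 1.18), or 2.14-fold. Thinned cells held an Asns UMI in 10.2% of WT and 17.8% of KO cells. Phgdh (chromosome 3, 98313170 to 98339990), which opens the serine pathway, stood at 38.5 CPM in WT and 65.4 CPM in KO (2317 and 2463 UMIs), a ratio of 0.77 (0.68 to 0.85). Psat1 (chromosome 19, 15904678 to 15947337), the next enzyme of that pathway, stood at 13.9 CPM in WT and 19.9 CPM in KO (835 and 750 UMIs). Its ratio of 0.52 (0.38 to 0.67) excluded equal levels but fell short of 1.5-fold. With each cell thinned to 3000 UMIs it was 0.72 and was called. Psat1 overlaps the processed pseudogene Gm3329 on the opposite strand.

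Ppp1r15a (chromosome 7, 45522916 to 45526268) encodes GADD34, the stress-induced subunit that directs protein phosphatase 1 to eIF2. It was lower in KO, at 7.15 CPM (269 UMIs) against 11.8 CPM (710 UMIs) in WT, with a ratio of −0.72 (−0.93 to −0.52), or 1.65-fold lower. In thinned cells a UMI was present in 3.91% of WT and 2.45% of KO cells. Ppp1r15a is also an early response gene, and the immediate early list given beside Atf3 was lower in the same library, though its part in this value was not tested. Tulp2, on the opposite strand, had 109 UMIs in WT and 12 in KO.

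Both libraries mixed cells with at least 3 Xist UMIs and none from Y-linked genes (1689 WT and 1696 KO cells) and cells with Y-linked UMIs but none of Xist (1540 and 996). In the first kind the ratio was 5.0 for Chac1, 4.46 for Trib3 and −2.73 for Atf3, and in the second 6.39, 4.76 and −3.19. Ppp1r15a was the exception among the called genes, with −0.56 (−0.97 to −0.17) in the second kind, short of 1.5-fold. The cells of one library share its preparation and are no replicates.

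By cluster, the first question was where each gene was found among clusters 0 to 5. The orders of levels below leave out cluster 6. In KO cells Chac1 was highest in goblet-like cluster 2, at 16.5 CPM, followed by goblet-like cluster 1 at 10.0 CPM and cluster 0 at 5.49 CPM, each distinct from the next beyond counting error. Clusters 3, 4 and 5 followed at 5.0, 4.04 and 3.51 CPM, and neighbours from cluster 0 down did not differ beyond it. A Chac1 UMI was held by 12.3% of KO cells of cluster 2, 9.40% of cluster 1 and 3.43% of cluster 0. Trib3 had the same top pair, with 6.10 CPM in cluster 2 and 4.55 CPM in cluster 1, and was lowest in cycling-like cluster 3 at 1.47 CPM. No neighbours in the order of Trib3 levels differed beyond counting error, while cluster 2 exceeded cluster 3. In WT cells both genes had at most 4 UMIs in any of these clusters.

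**Figure D2:**
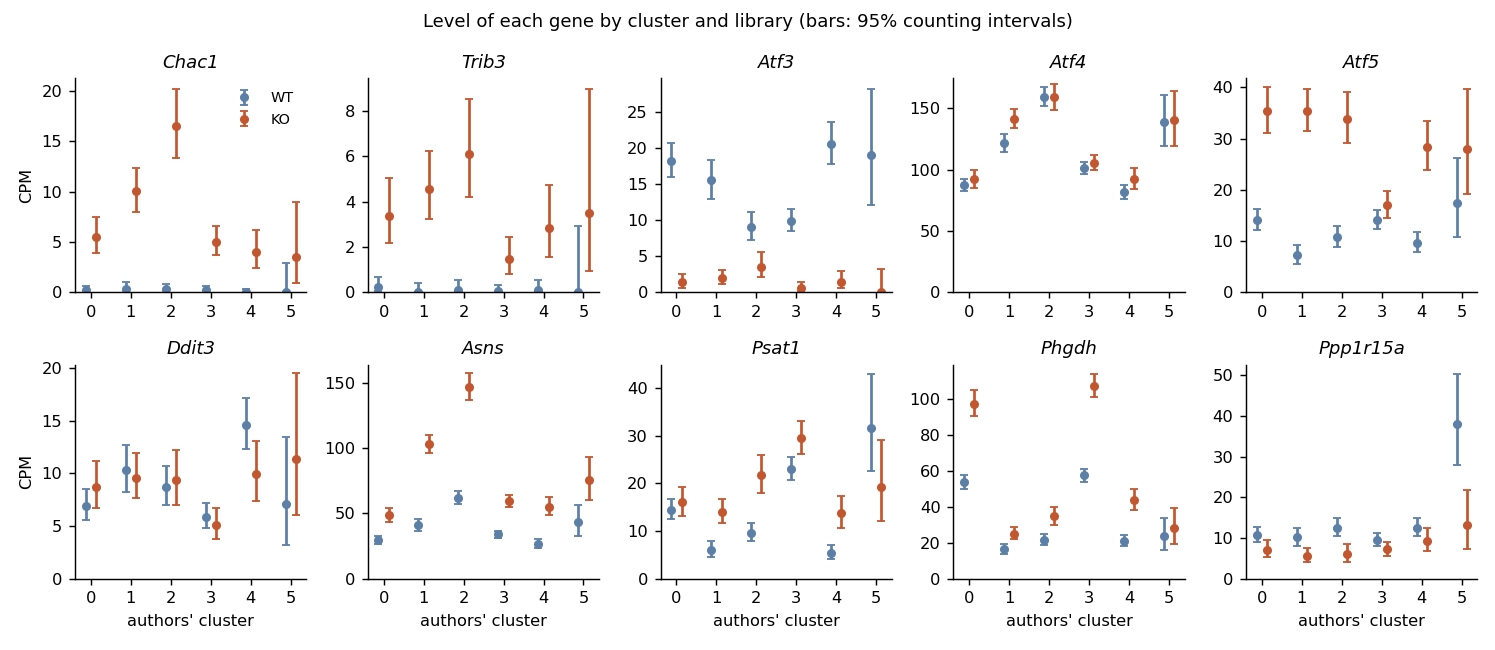
Level (CPM) of each of the 10 genes in clusters 0 to 5, WT in blue and KO in orange, with 95% counting intervals; each panel has its own axis from 0. Chac1 and Trib3 lie near 0 in every WT cluster, Atf3 lies lower in KO in every cluster, and Atf4 has the same order of clusters in both libraries apart from near-equal neighbours.

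Asns was also highest in cluster 2 in both libraries, at 61.9 CPM in WT and 147 CPM in KO. Cluster 1 followed in KO at 103 CPM, and the lowest KO level was 48.5 CPM in cluster 0. Atf4 was highest in cluster 2 as well, at 159 CPM in WT and 159 CPM in KO, and lowest in clusters 0 and 4, between 81.8 and 92.8 CPM over both libraries. So the goblet-like cluster 2 led for Atf4, Asns and Chac1 in the KO library. For Trib3 its level did not differ from that of cluster 1 beyond counting error. The share of KO cells with a Trib3 UMI was higher in cluster 1, with overlapping intervals. Phgdh had another pattern: cycling-like cluster 3 led at 57.7 CPM in WT and 108 CPM in KO, with cluster 0 next at 53.9 and 97.6 CPM and the goblet-like, colonocyte-like and enteroendocrine-like clusters between 16.5 and 43.9 CPM. Psat1 was highest in clusters 5 and 3 in WT, at 31.6 and 23.1 CPM, and in cluster 3 in KO, at 29.5 CPM. Ddit3 stood highest in colonocyte-like cluster 4 in WT, at 14.6 CPM, and was lowest in cluster 3 in both libraries, at 5.88 and 5.10 CPM. Among clusters 0 to 5 in WT, Ppp1r15a was highest in enteroendocrine-like cluster 5, at 37.9 CPM against 9.57 to 12.5 CPM in the others. In KO it was at 13.2 CPM in cluster 5, which did not differ beyond counting error from the next level, 9.30 CPM in cluster 4. Cluster 6, outside these orders, had WT levels of 37.7 CPM for Ppp1r15a (24 UMIs), 72.2 CPM for Phgdh and 20.4 CPM for Ddit3.

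The second question was whether the ratio of KO to WT differed between clusters. In cluster 1, 5 of the 9 genes measured there were higher and 2 lower, where 13.1% and 16.8% of all measured genes were. In cluster 2 the counts were also 5 and 2 of 9, beside 14.4% and 16.7%. In cluster 0, 3 of 8 were higher and 2 lower, beside 19.9% and 12.9%. In cluster 3, 3 of 9 were higher and 1 lower, beside 17.5% and 11.7%. In cluster 4, 4 of 8 were higher and 1 lower, beside 16% and 12.7%. In cluster 5, with 99 WT and 151 KO cells, 1 of 6 was higher and 1 lower, beside 14.9% and 9.76%.

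Chac1 reached 50 UMIs over both libraries in clusters 1, 2 and 3 and Trib3 in no cluster, so the counts above leave them out elsewhere, and both are given by their UMIs. Chac1 had 3 WT and 39 KO UMIs in cluster 0, 3 and 86 in cluster 1, 3 and 92 in cluster 2 and 4 and 51 in cluster 3, with ratios of 4.57 (2.92 to 6.91), 4.86 (3.26 to 7.16), 5.78 (4.19 to 8.09) and 4.40 (2.95 to 6.33). In cluster 4 it had 0 WT and 20 KO UMIs, at least 13.2-fold higher against a floor of 3 counts over the cluster. That bound holds the KO count fixed, and with the counting error of both libraries the log2 ratio had a lower limit of 3.29. In cluster 5 it had 0 and 4, and no difference was detectable at this depth. Trib3 had 0 WT and 39 KO UMIs in cluster 1 (at least 13.1-fold higher against the same floor, with a lower limit of 3.35 for the log2 ratio), 3 and 24 in cluster 0, 1 and 34 in cluster 2, 1 and 15 in cluster 3, 1 and 14 in cluster 4 and 0 and 4 in cluster 5. The intervals of its ratios excluded equal levels in clusters 0, 2, 3 and 4, from 3.87 (2.15 to 6.25) in cluster 0 to 5.93 (3.36 to 11.3) in cluster 2. The ratios of neither gene could be ordered by cluster.

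Some calls by cluster changed when fewer cells were kept. In cells with at most 10% mitochondrial UMIs, 11 calls were lost and 2 gained among the 60 pairs of a gene and a cluster. Fewer cells widen the intervals, so a lost call does not by itself show another ratio, and no such share over all genes is given here. Among the lost calls, 2 had intervals that left out the ratio over all cells of the cluster. They were Atf5 in cluster 0 (−0.80 to 0.79, against 1.32) and Phgdh in cluster 1 (−0.59 to 0.44, against 0.61). Calls in this comparison use the fold and interval rule alone, whether or not the gene counted as measured in that cluster. In cluster 0 the lost calls were those of Chac1, Trib3, Atf5 and Asns. Among its 243 WT and 183 KO cells with at most 10% mitochondrial UMIs, Chac1 had 2 and 4 UMIs with a ratio of 1.59 (−1.21 to 5.06), and Trib3 had 0 and 2. Atf5 there was at 15.8 CPM in WT and 15.9 CPM in KO, against 14.2 and 35.4 CPM over all cells of the cluster. Asns in the same cells was at 37.4 and 45.8 CPM, a ratio of 0.29 (−0.19 to 0.77). The cells kept in goblet-like cluster 1, 161 WT and 253 KO, gave 4.25 (1.63 to 9.61) for Chac1, 1.65 (0.93 to 2.44) for Atf5 and 1.44 (1.10 to 1.80) for Asns, while Phgdh lost its call there. In goblet-like cluster 2 calls were lost for Trib3 (1 and 4 UMIs), Psat1 (0.74, −0.01 to 1.51) and Ppp1r15a (−0.95, −2.04 to 0.05). In colonocyte-like cluster 4 Chac1 had 0 and 3 UMIs and Trib3 0 and 1, and no difference was detectable. In cluster 5 Asns had a ratio of 0.51 (−0.33 to 1.35) and lost its call. Ddit3 (2.10, 0.09 to 4.62) and Psat1 (−1.69, −3.44 to −0.26) gained one there. Ddit3 had 3 WT and 9 KO UMIs in those cells and Psat1 23 and 5, too few to count as measured.

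**Figure D3:**
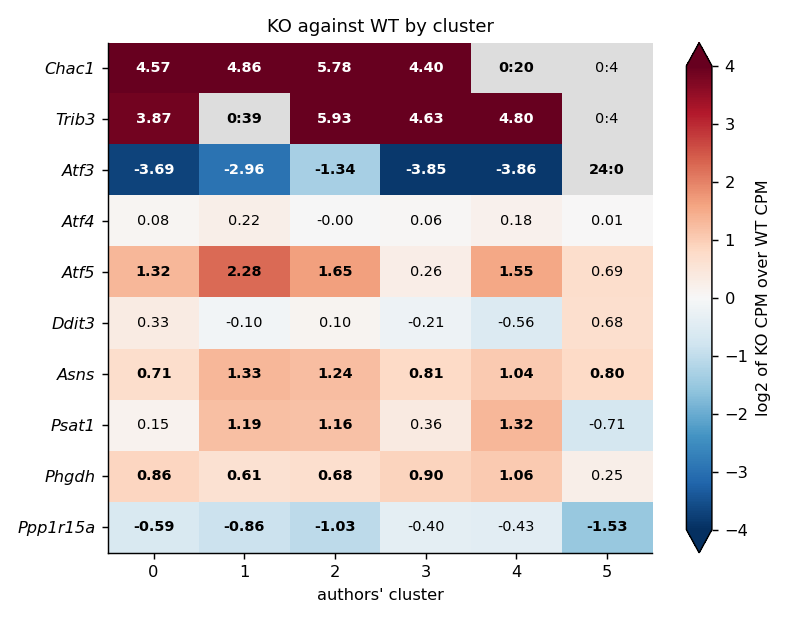
Log2 of KO CPM over WT CPM (colour and number) for each of the 10 genes in clusters 0 to 5. Bold marks a difference of at least 1.5-fold whose interval excludes equal levels, whether or not the gene reached 50 UMIs there, grey cells with a colon give WT and KO UMIs where one library had 0, and Asns is bold in all 6 clusters while Atf4 and Ddit3 are bold in none.

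Over all cells of each cluster Asns was higher in KO in 6 of 6 clusters, and in the cells with few mitochondrial UMIs given above in all but clusters 0 and 5. Over all cells its ratios ran from 0.71 (0.50 to 0.93) in cluster 0 to 1.33 (1.15 to 1.51) in cluster 1. The ratio in cluster 1 exceeded that in cluster 0 by 0.62 (0.34 to 0.89) and that in cluster 3 by 0.52 (0.28 to 0.77), and 6 of the 15 pairs of clusters differed beyond counting error. Phgdh was higher in 5 of 6 clusters, from 0.61 in cluster 1 to 1.06 in cluster 4, and 2 of 15 pairs differed. Its value in cluster 1 was −0.08 (−0.59 to 0.44) in the cells with at most 10% mitochondrial UMIs.

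Psat1 showed the most uneven ratio of the enzymes. It was higher in goblet-like clusters 1 (1.19, 0.72 to 1.69) and 2 (1.16, 0.77 to 1.57) and in colonocyte-like cluster 4 (1.32, 0.78 to 1.86). Ratios of 0.15 (−0.20 to 0.49) in cluster 0, 0.36 (0.13 to 0.58) in cluster 3 and −0.71 (−1.53 to 0.07) in cluster 5 were not called. Of the 15 pairs, 11 differed, with cluster 4 exceeding cluster 3 by 0.96 (0.40 to 1.52). The clusters with high ratios were those with the lowest WT levels, 5.51 to 9.68 CPM, against 14.5 to 31.6 CPM in the other clusters.

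Atf5 was higher in clusters 0, 1, 2 and 4, with ratios of 1.32, 2.28 (1.88 to 2.70), 1.65 and 1.55, and not called in cluster 3 (0.26, −0.03 to 0.55) or cluster 5 (0.69, −0.14 to 1.55). Cluster 1 exceeded cluster 3 by 2.02 (1.54 to 2.51), and 9 of 15 pairs differed. Without the cells holding an Il4i1 UMI the ratio was 2.30 in cluster 1 and 0.14 in cluster 3.

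Atf3 was lower in KO in each of the 5 clusters in which it was measured. Its ratio was −3.69 (−4.77 to −2.79) in cluster 0, −2.96 (−3.79 to −2.23) in cluster 1, −1.34 (−2.12 to −0.63) in cluster 2, −3.85 (−5.19 to −2.78) in cluster 3 and −3.86 (−5.19 to −2.79) in cluster 4. In cluster 5, where it did not reach 50 UMIs, it had 24 in WT and 0 in KO, at least 7.20-fold lower against a floor of 3 KO counts, with an interval for the log2 ratio that reached up to −2.44. Of the 20 KO UMIs of cluster 2, 10 lay in a single cell. Without the cell with the most Atf3 UMIs of each library the ratio there was −2.26 (−3.37 to −1.31). Cluster 0 lay below cluster 2 by a difference of −2.35 (−3.50 to −1.21), or −1.91 without those cells, and 4 of 10 pairs of clusters differed. In cells with at most 10% mitochondrial UMIs the values were −3.36 (−6.47 to −1.39) in cluster 0, with 2 KO UMIs, and −3.16 (−5.51 to −1.50) in cluster 2, with 3, so no gap between these clusters was detectable there. Summed immediate early genes were lower in KO in every one of these clusters, most in cluster 1 (2558 and 1323 CPM) and least in cluster 2 (1991 and 1280 CPM), and their part in the Atf3 ratios was not tested. Ppp1r15a was lower in clusters 0, 1, 2 and 5, with ratios from −0.59 to −1.53, and not called in clusters 3 (−0.40) and 4 (−0.43). Over all cells of a cluster Ddit3 was called in none. Its ratio was −0.56 (−1.06 to −0.08) in cluster 4 and 0.33 (−0.16 to 0.82) in cluster 0, which differed by 0.89 (0.23 to 1.55). Atf4 ranged from −0.00 in cluster 2 to 0.22 in cluster 1.

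The rest of the pathway was read from 9 lists, without the 10 genes themselves, over all cells. These lists too were chosen with earlier results of these data known. Their counts stand beside 16.7% higher and 16.2% lower among all measured genes. Of the 4 eIF2 kinases, Eif2ak2, which senses double-stranded RNA and is induced by interferon, was higher (0.83, 0.73 to 0.92), and the other 3 lay between −0.40 and 0.12. Among 8 subunits of eIF2 and of its exchange factor eIF2B, Eif2b2 was higher (0.86) and Eif2s3x lower (−0.67). Of 11 measured phosphatase and leucine zipper genes, 2 were higher and 3 lower, with a median of −0.16. Cebpg, which pairs with ATF4, had a ratio of 0.88 (0.81 to 0.95) and Cebpd 1.78 (1.67 to 1.90). Jun (−1.16), the phosphatase subunit Ppp1cc (−0.67) and Cebpa (−0.62) were lower.

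**Figure D4:**
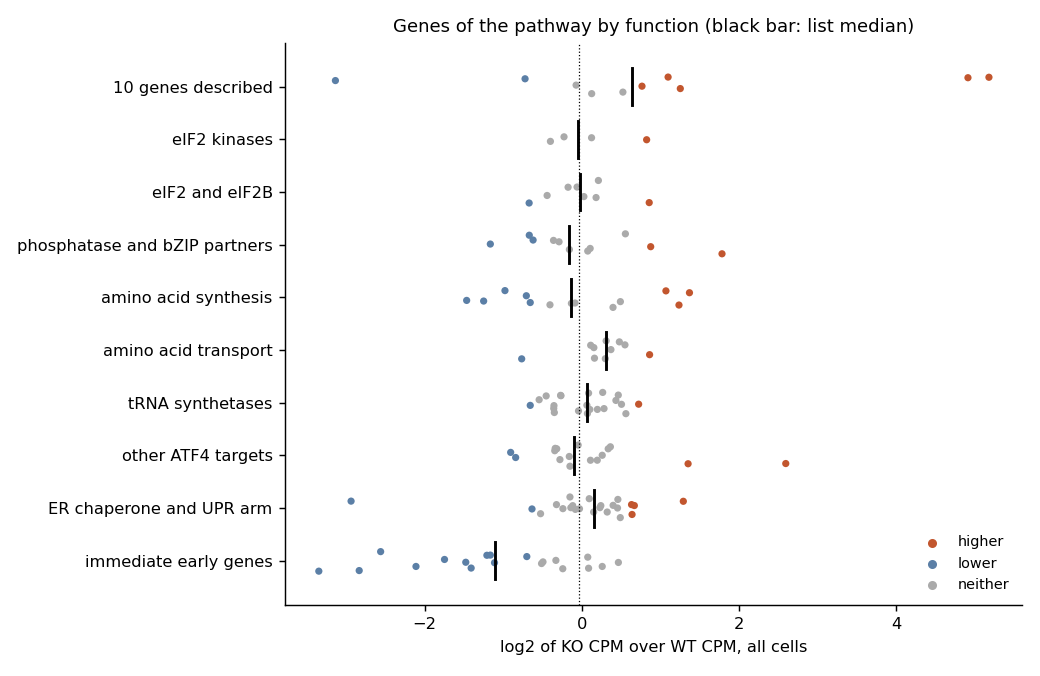
Log2 of KO CPM over WT CPM over all cells for the measured genes of each list, coloured by call; black bars are list medians and the dotted line is the median of all measured genes. The 10 genes spread wider than the lists for eIF2, transport and tRNA synthetases, whose points lie mostly between −0.5 and 0.5, and the immediate early list lies to the left with a median of −1.11.

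Among 13 measured genes of amino acid and folate-linked synthesis, 3 were higher and 5 lower, with a median of −0.13. Psph, which finishes the serine pathway after Phgdh and Psat1, stood at 11.7 CPM in WT and 27.6 CPM in KO (1.24, 1.10 to 1.38). Mthfd2, a mitochondrial folate enzyme, had 1.07 (0.95 to 1.19) and Got1, which makes aspartate, 1.37 (1.25 to 1.49). Other folate-linked genes of the list were not higher: Shmt1 (−0.71) and Mthfd1l (−0.66) were called lower and Shmt2 (−0.13) neither. All 3 enzymes of serine synthesis thus had ratios above 0, with Psat1 below 1.5-fold. The lowest were Cth (−1.47) and Cbs (−0.98), which turn homocysteine into cysteine, and Pycr1 (−1.25), which makes proline.

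Of 10 measured amino acid transporters, 1 was higher, the glycine carrier Slc6a9 (0.86), and 1 lower, the neutral amino acid carrier Slc1a4 (−0.77), with a median of 0.30. Of 21 tRNA synthetases, 1 was higher, Aars (0.72), 1 lower, Dars (−0.66), and 19 neither, with a median of 0.07. Of 16 other measured ATF4 targets, 2 were higher and 2 lower, with a median of −0.10. The higher pair was Gdf15, a secreted stress hormone that p53 also induces, at 4.29 CPM in WT and 25.9 CPM in KO (2.60, 2.40 to 2.80), and Eif4ebp1, an inhibitor of cap-dependent translation, at 60.4 and 154 CPM (1.35, 1.29 to 1.41). Vegfa (−0.91) and Vldlr (−0.84) were the lower pair. Of 23 genes of the ER chaperone and unfolded protein arm, 4 were higher and 2 lower, with a median of 0.15. Hspa5, the main ER chaperone, stood at 347 CPM in WT and 849 CPM in KO (1.29, 1.27 to 1.32). Manf (0.67) and Sel1l (0.63) were higher, and Edem1 (−0.63) and Derl3 (−2.94, 49 and 4 UMIs) lower. Of the immediate early genes, Fosb (−3.35), Dusp1 (−2.83) and Nr4a1 (−2.56) had the lowest bounds. Over all cells, beside the 16.7% and 16.2% of all measured genes, 2 of 31 transporters and synthetases were called higher and 2 lower. The counts varied by cluster. Transporters called higher ran from 0 of 10 in cluster 2 (1 lower) to 4 of 10 in cluster 1 (0 lower). Synthetases called higher ran from 0 of 21 in cluster 3 (2 lower) to 4 of 21 in clusters 1 and 4 (0 lower in each). The shares of all measured genes in these clusters are given above with the 10 genes.

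Whether the genes were found in the same KO cells was described after thinning to 3000 UMIs. Of 65 KO cells with a Chac1 UMI, 44.6% (32.3 to 57.5) also held an Atf4 UMI, against 26.7% of the 3491 KO cells without one. The same comparison gave 21.5% (12.3 to 33.5) and 7.16% for Atf5, 38.5% (26.7 to 51.4) and 17.4% for Asns, and 6.15% (1.70 to 15.0) and 0.802% for Trib3. For Phgdh it gave 23.1% (13.5 to 35.2) and 16.8%, for Ddit3 3.08% and 2.29%, and for Psat1 6.15% and 5.61%, with intervals that take in the other value. Since cluster 2 led for several of the genes, the shares were also taken within the goblet-like clusters 1 and 2 alone. There 37 cells held a Chac1 UMI and 1217 did not. Atf4 was found in 54.1% (36.9 to 70.5) and 31.8% of them, Atf5 in 29.7% (15.9 to 47.0) and 8.79%, Phgdh in 18.9% (7.96 to 35.2) and 7.31%, and Trib3 in 10.8% (3.03 to 25.4) and 1.07%. Asns was found in 43.2% (27.1 to 60.5) and 26.8%, and the chaperone gene Hspa5 in 94.6% and 95%. In the WT library 2 thinned cells held a Chac1 UMI, too few for a comparison.

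**Figure D5:**
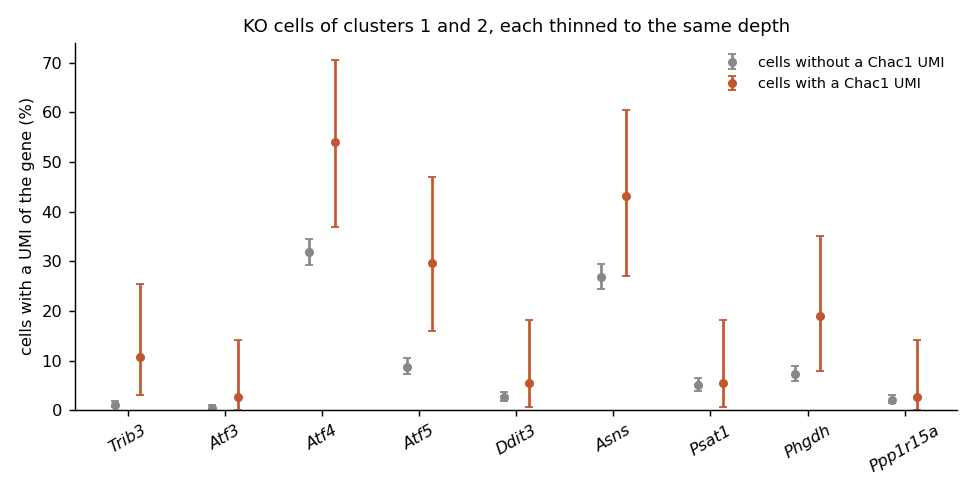
Share (%) of thinned KO cells of clusters 1 and 2 with a UMI of each gene, for cells with a Chac1 UMI (orange, 37 cells) and without (grey, 1217 cells), with exact 95% intervals. The intervals lie apart for Trib3, Atf4 and Atf5 and overlap for the other genes, with Asns at 43.2% and 26.8% and Phgdh at 18.9% and 7.31%.

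Genes with the most similar pattern were found by Pearson's r of log2(CPM + 1) over 12 points, clusters 0 to 5 in each library, among 11302 genes with at least 200 UMIs. The points share libraries, so any gene that differs between these libraries in the same way scores high. Chac1 was most like Ccl17 (0.98), Chil6 (0.98) and Chid1 (0.97), and Trib3 most like Ssu72 (0.97), Uqcc3 (0.97) and Chil6 (0.97). Chac1 and Trib3 had an r of 0.96 with each other, and Chac1 had 0.85 with Asns, 0.84 with Atf5 and 0.29 with Atf4. Atf4 had 0.74 with Asns. Atf3 was most like the immediate early gene Fos (0.95), Cyr61 (0.94) and Xlr3b (0.94), and had an r of −0.78 with Chac1 and −0.82 with Trib3. Asns was most like Sh3bgrl3 (0.97), Hspa5 (0.97) and Acsf3 (0.96), Phgdh like Timm21 (0.95), Mrps30 (0.94) and Sfxn1 (0.94), and Ppp1r15a like Itpr3 (0.98). Atf4 was most like Nov (0.97), Atf5 like Angptl8 (0.96), Ddit3 like Cutal (0.91) and Psat1 like Gm45250 (0.89).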

How the data were processed

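Per the labels' protocols, sorted live EpCAM-positive cells were profiled with 10x Genomics 3' chemistry, and the submitters' processing notes name Cell Ranger, bcl2fastq and the build mm10 without versions. The authors deposited a filtered matrix of raw UMI counts (17829 genes, 7863 cells) and each cell's library and cluster. The filter, the clustering method and the use of strand are not given in the sources used here. UMIs were summed per library, or per cluster and library with at least 50 cells in each, and scaled to the total of the same cells (CPM). Intervals are 95% and cover counting error only: exact Poisson for CPM, exact conditional binomial for ratios and Clopper-Pearson for shares. Differences of ratios between clusters use the standard error of the 4 summed counts, each at least 5. Zero counts were set against a floor of 3 counts. No test was run. Cells were thinned by random draws to 3000 or 5000 UMIs.

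The 10 genes and the 9 pathway lists were chosen with earlier results of these data known. In each list up to 3 higher and 3 lower genes were named, those with the interval bound farthest from 0 among the called. Shmt1, Shmt2 and Mthfd1l were named as well, beside Mthfd2. Up to 3 most similar genes were named per member. Genes on the opposite strand of a member were named from the GENCODE vM21 annotation of GRCm38. No gene row was found for 1 of the 14 amino acid synthesis genes, which was not analysed here. Other settings numbered 21, and 4 more were chosen after seeing the data: a 2-fold threshold for the 10 genes, leaving out the cell with the most UMIs of a gene over all cells, the same per cluster, and leaving out cells with an Il4i1 UMI. On simulated counts for all cells, 97% of 100 genes set 2-fold apart and 99% of 100 genes set 4-fold apart were called, and 0.502% of 13134 unchanged genes. The simulated counts held counting error only, as the intervals assume. They therefore give no rate of false calls for differences between libraries or animals. Python 3.11.15, numpy 2.4.6, scipy 1.17.1 and pandas 2.3.3 were used.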

Additional observations from a re-analysis of the deposited data

How the results depend on the processing

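No paired analysis was possible because each genotype has 1 library, and for the same reason no replicate could be left out. Over all cells, Chac1, Trib3, Asns and Phgdh were called higher and Atf3 lower under every alternative at the 1.5-fold threshold that gave a value, with ranges of 4.21 to 6.39, 4.04 to 5.12, 0.94 to 1.15, 0.68 to 0.89 and −3.53 to −2.73. Atf4 ranged from −0.04 to 0.17 and Ddit3 from −0.39 to 0.04, neither called under any. Atf5 ranged from 0.58 to 1.30 and lost its call in cells with at most 10% mitochondrial UMIs. Ppp1r15a lost its call in cells with a Y-linked and no Xist UMI, where 1 of the 10 genes was lower in place of 2. Psat1 gained a call when cells were thinned to 3000 UMIs (0.72) and without cells holding a Ccl20 or Spib UMI (0.63). Phgdh in cluster 1 changed sign, to −0.078, in cells with at most 10% mitochondrial UMIs. Fewer cells remain under that setting, and the cause of the changes was not tested. With a 2-fold threshold, chosen for the 10 genes after seeing the data, Phgdh (1.70-fold) and Ppp1r15a (1.65-fold) would not be called, which leaves 4 of the 10 higher and 1 lower. With the same threshold, 7 in place of 15 genes of the 9 lists were higher and 14 in place of 26 lower, a gene on 2 lists counting for each. No share of all measured genes is given here at 2-fold or in the cells with a Y-linked and no Xist UMI. The counts under these 2 settings therefore cannot be set beside one and describe the named genes only. An equal weight for each cluster gave no value for Chac1, Trib3 and Atf3, which had a cluster with 0 counts. Depth limits Chac1 and Trib3 most: their WT levels rest on 13 and 7 UMIs.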
